A study of Homo sapiens with 8 samples.

Results

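The 34 genes described here carry glucose into the cell, break it down to lactate, or are classically induced when oxygen is low. They were taken by name from a table of 40295 gene IDs and 63 spike-in RNAs: 2 glucose transporters, 9 enzymes of upper glycolysis, 2 regulators of phosphofructokinase, 6 enzymes of lower glycolysis, 5 genes of lactate and pyruvate handling and 10 other hypoxia-inducible genes. Each name matched 1 Ensembl gene ID, and all 34 were among the 16519 genes that passed the filter on low counts. The cells were HCT116, a human colorectal cancer line, and a derivative in which CRISPR-Cas9 had introduced the E33Q change into MED12, a subunit of the kinase module of the Mediator complex. There were 4 groups of 2 libraries: knock-in cells given 5 ng/ml interferon-gamma (IFN-γ) for 24 h, untreated knock-in cells (0 h), wild-type cells given 5 ng/ml IFN-γ for 24 h, and untreated wild-type cells (0 h). The design sets the IFN-γ response of the knock-in line beside that of its parent. Only 1 knock-in line is named, so a line difference cannot be divided between E33Q and other properties of that line, and every treated library is 24 h against 0 h, so IFN-γ and time in culture cannot be told apart. The submitters call the replicates biological without saying what separated them, so p-values measure the spread between these samples.

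Glycolysis splits glucose into pyruvate in a chain of cytosolic enzymes, and lactate dehydrogenase and the monocarboxylate transporters then dispose of the product as lactate. Many of these genes are targets of the hypoxia-inducible factors (HIF), dimers of an oxygen-labile alpha subunit (HIF1A or EPAS1) with ARNT, which bind short DNA motifs with a core of ACGTG, or with G as the first letter of that core. Colorectal cancer cells run glycolysis at a high rate even when oxygen is plentiful, and the same genes are under control of MYC and growth signalling.

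Total estimated counts per library were 20901909 to 28045842. Libraries differed in properties other than treatment. The mean GC content of the counted transcripts was 48.9 to 49.1% in the 4 treated libraries and 46.2 to 47.6% in the 4 untreated ones, where the replicates of untreated wild-type cells lay at 47.6 and 46.4%. ERCC spike-ins took 0.228 to 0.271% of counts in treated and 0.110 to 0.141% in untreated libraries. Transcripts of plasma cells and leukocytes (10 markers, among them JCHAIN and IGKC) summed to 288 CPM (read counts scaled for library size) in treated knock-in library 2 and to 350 CPM in untreated knock-in library 2. They summed to 362 and 407 CPM in the untreated wild-type libraries. In the other 4 libraries the sum was 5.60 CPM or less, and IGKC, IGHA1 and IGHA2 were at 0. All 10 markers were above 0 in the 4 libraries that held the signal. Epithelial markers summed to 2281 to 5123 CPM, and 6 of the 8 were at 24.2 CPM or more in every library, while CEACAM5 and VIL1 stayed at 0.322 CPM or less. IRF1, a direct target of IFN-γ signalling, had 352 and 336 CPM in treated and 11.3 and 11.4 CPM in untreated knock-in cells, against 337 and 361 CPM in treated and 13.6 and 10.3 CPM in untreated wild-type cells. MED12 had 33.3 and 30.1 CPM in treated and 12.9 and 11.2 in untreated knock-in cells, against 34.3 and 28.3 CPM in treated and 23.1 and 14.2 in untreated wild-type cells; E33Q is a point change, so this level does not check the genotype.

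Glycolytic genes moved in both directions with IFN-γ, in either line. A gene is "called" when its p from the quasi-likelihood test of edgeR, adjusted by Benjamini-Hochberg over all 16519 genes, was under 0.05 (n = 2 per group, with a common estimate of the spread from all 8 libraries). Log2 fold changes are given with their standard errors. In knock-in cells 19 members were called higher and 9 lower, beside 26.4% of all tested genes called higher and 25.8% called lower. In wild-type cells 9 members were called higher and 10 lower, where 17.1% and 20.8% of all genes were. The members' median log2 fold change was 0.63 in knock-in and 0.20 in wild-type cells, where all tested genes had medians of 0.12 and 0.08. Every member called higher in wild-type cells was also called higher in knock-in cells (9 of 9, and 9 of 19 the other way), and 8 members were called lower in both lines (8 of 9 in knock-in, 8 of 10 in wild-type cells). In knock-in cells treated and untreated libraries overlapped for no member (21 higher, 13 lower). In wild-type cells they overlapped for SLC2A1, ALDOC, ANGPTL4, NDRG1 and EGLN3, with 17 others higher and 12 lower when treated. The share of all tested genes without overlap was not counted, so these counts have no background to be read against. The difference between the responses was not called for any member, as set out further on. Without the 2 knock-in libraries that held plasma cell transcripts, 11 members remained called in knock-in cells: HK1, HK2, PFKP, ALDOA, ENO1 and PKM higher, and PGK1, LDHB, SLC16A1, BNIP3 and P4HA1 lower, with the lone library of each group assumed to vary like the others. The untreated wild-type libraries both held those transcripts and the treated wild-type ones did not. The untreated ones could therefore not be left out, and their part in the wild-type response was not tested. Leaving out the plasma cell libraries, below, means those 2 knock-in libraries only, with the untreated wild-type ones kept. That fit called fewer of all genes, so the shares above are not its background. In bulk RNA, fewer cells of a type and less RNA per cell cannot be told apart.

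**Figure D1:**
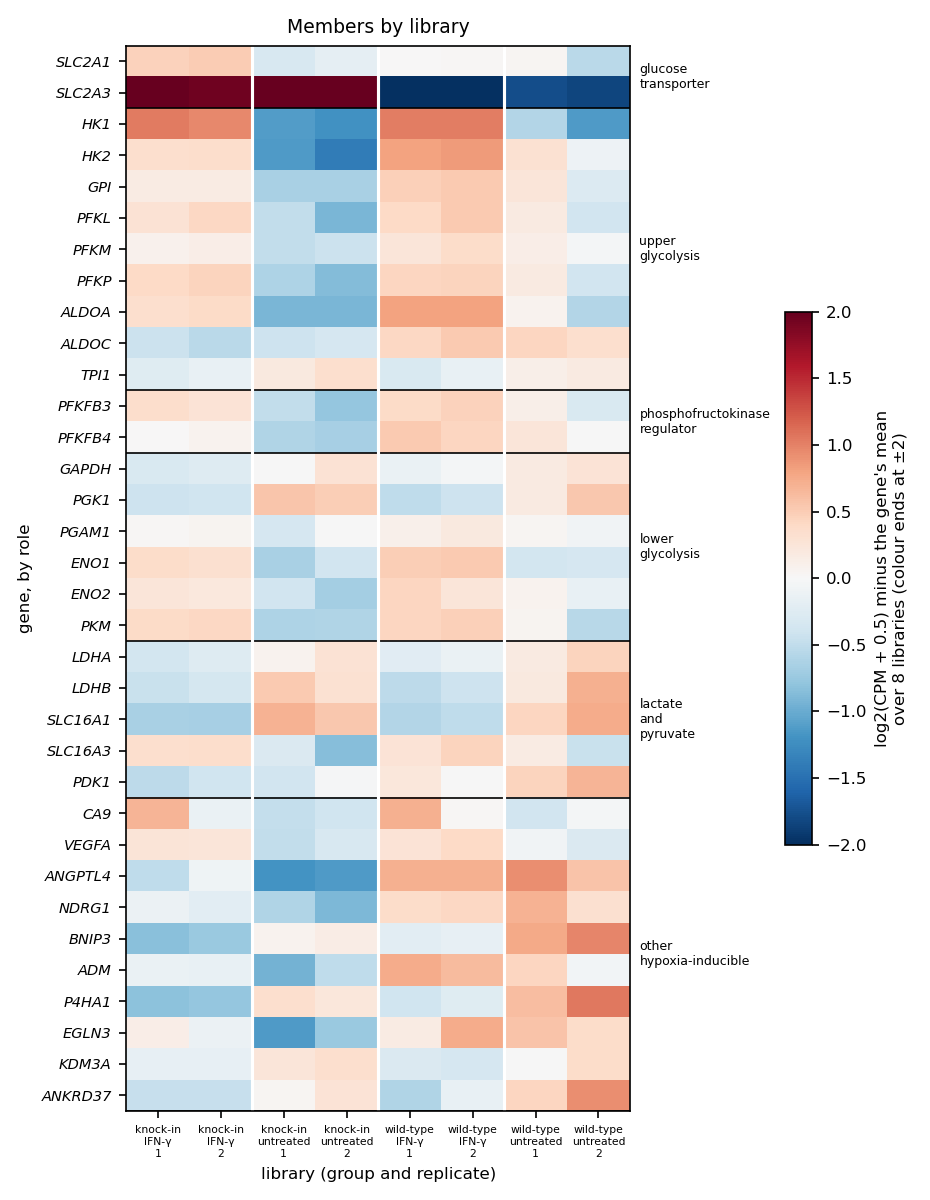
Colour shows log2(CPM + 0.5) of each of the 34 genes (rows, by role) in each of the 8 libraries (columns, by group and replicate) minus that gene's mean over the libraries, with the scale ending at ±2. SLC2A3 separates the lines, HK1 separates treated from untreated libraries in both lines, and genes such as PGK1, SLC16A1 and LDHB show the opposite colour to HK1.

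The largest line difference among the members was in glucose transport. SLC2A3, a high-affinity glucose transporter best known from neurons (ENSG00000059804, chr12:7919230-7936275 on GRCh38, minus strand), had 84.6 and 73.7 CPM in treated and 90.0 and 90.8 CPM in untreated knock-in cells. SLC2A3 in wild-type cells stood at 3.24 and 2.61 CPM when treated and 5.15 and 4.91 CPM when untreated. Every knock-in library lay far above every wild-type library, whatever the treatment. SLC2A3 was 26.9-fold higher in knock-in than in wild-type cells with IFN-γ (log2 fold change 4.75 ± 0.18, edgeR adjusted p = 5.66e-06) and 18-fold higher without it (4.17 ± 0.17, edgeR adjusted p = 6.48e-06), and it was called in all 19 alternative analyses of each. The size of the fold rests on how reads were divided between SLC2A3 and its pseudogenes. Reads of the near-identical SLC2A14 could be confused with it, but SLC2A14, looked at after these values were seen, stayed at 0.334 CPM or less. The pseudogene SLC2A3P1 had 4.65 and 7.18 CPM in treated and 2.40 and 1.11 CPM in untreated knock-in cells, against 15.1 and 10.9 CPM in treated and 2.94 and 4.96 CPM in untreated wild-type cells. In wild-type cells SLC2A3 pseudogenes held up to 82.3% of the reads of the family, and the low SLC2A3 level there is uncertain. The pseudogene counts were therefore added to SLC2A3 and the fit repeated, a step chosen after the values were seen. The summed level was 89.2 and 80.9 CPM in treated and 92.36 and 91.96 CPM in untreated knock-in cells, against 18.4 and 13.6 CPM in treated and 8.09 and 9.87 CPM in untreated wild-type cells. The knock-in libraries still lay above all wild-type ones, but by 5.33-fold with IFN-γ (log2 fold change 2.41 ± 0.18, edgeR adjusted p = 0.000167) and 10.3-fold without it (3.36 ± 0.19, edgeR adjusted p = 2.72e-05). Counted alone, SLC2A3 fell with IFN-γ in wild-type cells (−0.78 ± 0.18, edgeR adjusted p = 0.00825), a call that was lost without treated wild-type 2 (adjusted p = 0.0803) and under limma-voom, and was not called in knock-in cells (−0.19 ± 0.14, edgeR adjusted p = 0.296). Summed with its pseudogenes it went the other way in wild-type cells and was called higher (0.83 ± 0.18, edgeR adjusted p = 0.00688), so the direction there is uncertain.

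SLC2A1, the glucose transporter of most dividing cells, had 276 and 286 CPM in treated and 159.8 and 178 CPM in untreated knock-in cells. SLC2A1 in wild-type cells stood at 201 and 204 CPM when treated and 206 and 139 CPM when untreated. Both treated knock-in libraries were the highest of the 8, and the untreated wild-type replicates spanned the treated ones. With IFN-γ it rose in knock-in cells (0.74 ± 0.18, edgeR adjusted p = 0.0063), though not without the libraries holding plasma cell transcripts or with the GC trend removed (0.21, adjusted p = 0.158), and was not called in wild-type cells (0.23 ± 0.18, edgeR adjusted p = 0.328). Per kilobase of transcript, SLC2A3 made up 14.1 and 12.2% of the summed level of the SLC2A1 and SLC2A3 transporters in treated and 23.2 and 21.6% in untreated knock-in cells, but 0.861 and 0.683% in treated and 1.33 and 1.87% in untreated wild-type cells, with the pseudogenes left out.

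Hexokinases trap glucose in the cell as its phosphate. HK1 gave the largest called rise with IFN-γ in both lines, and HK2 the next in knock-in cells. HK1, the hexokinase of most tissues (ENSG00000156515, chr10:69269984-69401884 on GRCh38, plus strand), had 101 and 96.0 CPM in treated and 22.4 and 20.9 CPM in untreated knock-in cells. HK1 in wild-type cells stood at 100 and 101 CPM when treated and 32.5 and 22.0 CPM when untreated. All 4 treated libraries lay close together, and all 4 untreated ones lay well below them. The rise was 4.55-fold in knock-in cells (log2 fold change 2.19 ± 0.18, edgeR adjusted p = 0.000102) and 3.68-fold in wild-type cells (1.88 ± 0.18, edgeR adjusted p = 0.000276). HK1 was the only member called higher in both lines in every alternative analysis, including scaling to the spike-ins (1.66, adjusted p = 0.0012 in knock-in, 1.04, adjusted p = 0.0139 in wild-type cells) and removal of the GC trend (1.51 and 1.39). Its level did not separate the lines with IFN-γ (−0.024 ± 0.17, edgeR adjusted p = 0.975) or without it (−0.33 ± 0.18, edgeR adjusted p = 0.274).

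HK2, the hexokinase of muscle and fat that many tumours and hypoxic cells induce (ENSG00000159399, chr2:74833981-74893359 on GRCh38, plus strand), had 112 and 112 CPM in treated and 39.8 and 33.1 CPM in untreated knock-in cells. HK2 in wild-type cells stood at 154 and 159 CPM when treated and 108 and 82.0 CPM when untreated. Untreated knock-in cells stood below all other libraries, by a wide gap. HK2 was lower in untreated knock-in than in untreated wild-type cells (−1.39 ± 0.16, edgeR adjusted p = 0.00178), and this call held in all 19 alternatives. With IFN-γ it rose in knock-in cells (1.62 ± 0.16, edgeR adjusted p = 0.000177), also in every alternative, and in wild-type cells (0.71 ± 0.16, edgeR adjusted p = 0.00738), where it lost its call with the GC trend removed (0.22) and turned negative under spike-in scaling (−0.11). With IFN-γ the line difference was not called (−0.48 ± 0.16, edgeR adjusted p = 0.172). Per kilobase, HK1 was 56.6 and 55.2% of the summed HK1 and HK2 level in treated and 44.7 and 47.6% in untreated knock-in cells, and 48.2 and 47.7% in treated and 30.1 and 27.8% in untreated wild-type cells, so HK1's share was higher with IFN-γ in both lines with no overlap of libraries.

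**Figure D2:**
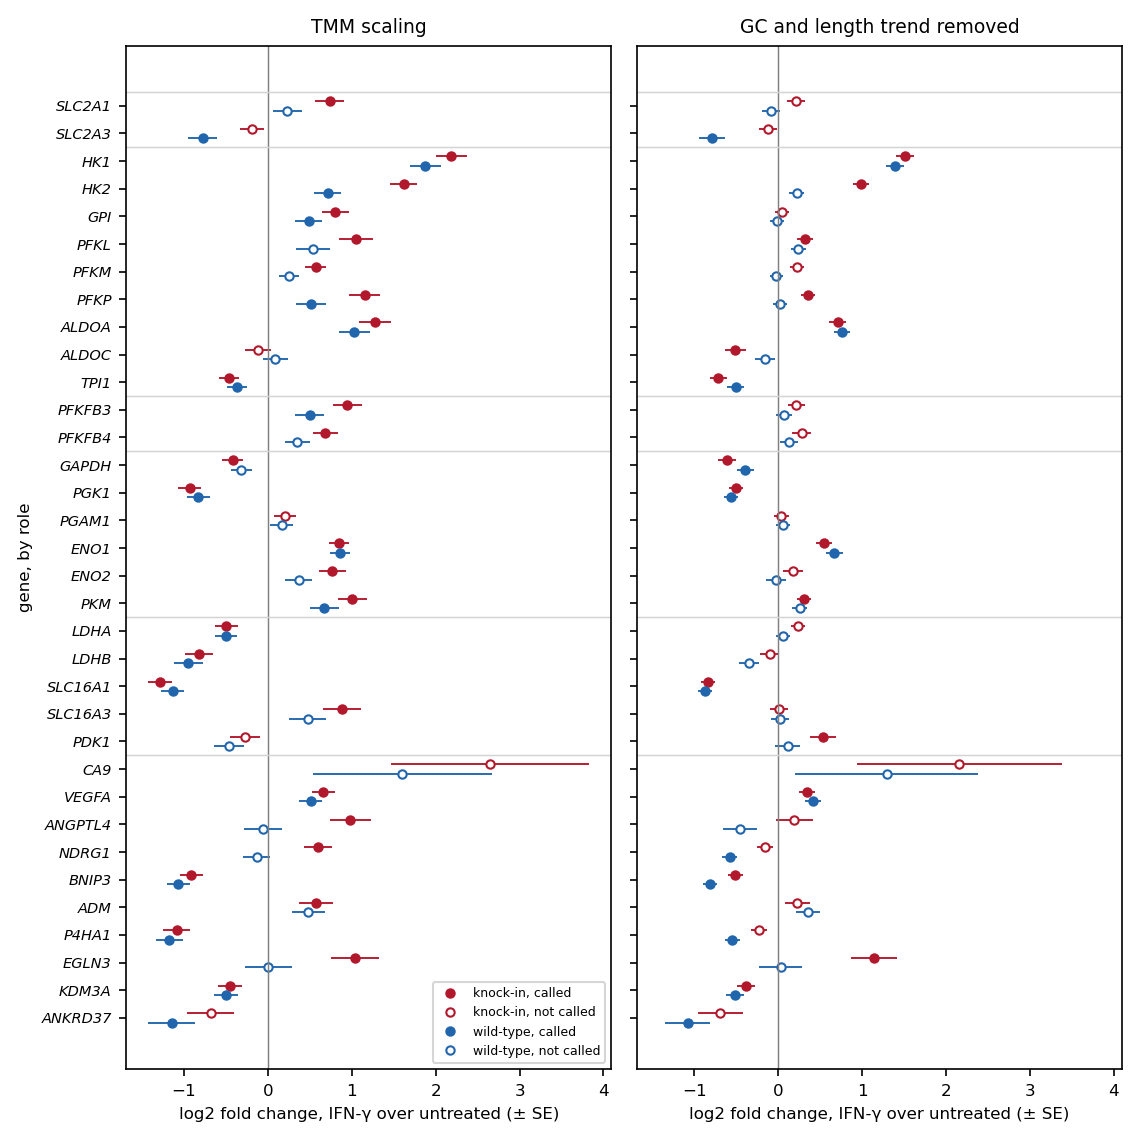
Log2 fold change of IFN-γ-treated over untreated cells for the 34 genes in knock-in (red) and wild-type cells (blue), with standard errors; filled points were called. With TMM scaling (left) the members run from −1.28 for SLC16A1 to 2.19 for HK1 in knock-in cells among called genes; with the GC and length trend removed (right) HK1 keeps 1.51 and 1.39, HK2 is called in knock-in cells alone and most other upper glycolysis genes move towards 0.

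Of the 9 upper glycolysis enzymes, 7 rose in IFN-γ-treated knock-in cells and 5 in wild-type cells, while TPI1 fell in both. Over all genes, 26.4% were called higher and 25.8% lower in knock-in cells, and 17.1% and 20.8% in wild-type cells. ALDOA, the main aldolase, which splits fructose bisphosphate, had 520.2 and 537 CPM in treated and 217 and 219 CPM in untreated knock-in cells. ALDOA in wild-type cells stood at 723 and 722 CPM when treated and 432 and 275 CPM when untreated. ALDOA rose in knock-in (1.28 ± 0.19, edgeR adjusted p = 0.000544) and wild-type cells (1.03 ± 0.19, edgeR adjusted p = 0.00273), and it lost its call in both under spike-in scaling alone among the alternatives (0.74 and 0.19). ALDOC, the brain-type aldolase, had 15.2 and 13.9 CPM in treated and 15.3 and 16.2 CPM in untreated knock-in cells. ALDOC in wild-type cells stood at 27.6 and 29.8 CPM when treated and 27.9 and 26.1 CPM when untreated. Every knock-in library lay below every wild-type library. It was not called with IFN-γ in knock-in (−0.11 ± 0.15, edgeR adjusted p = 0.568) or wild-type cells (0.089 ± 0.15, edgeR adjusted p = 0.672). ALDOC made up 2.56 and 2.28% of aldolase transcripts per kilobase in treated and 5.97 and 6.22% in untreated knock-in cells, and 3.32 and 3.58% in treated and 5.49 and 7.86% in untreated wild-type cells.

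GPI, which isomerises glucose phosphate, had 360.2 and 362 CPM in treated and 207 and 206 CPM in untreated knock-in cells. GPI in wild-type cells stood at 448 and 465 CPM when treated and 382 and 268 CPM when untreated. GPI rose in knock-in (0.81 ± 0.16, edgeR adjusted p = 0.00248) and wild-type cells (0.49 ± 0.16, edgeR adjusted p = 0.0379), but the wild-type value was −0.012 with the GC trend removed and −0.35 under spike-in scaling. The knock-in value was called under neither the GC removal (0.048, adjusted p = 0.722) nor the spike-in scaling (0.27, adjusted p = 0.419). Phosphofructokinase commits sugar to glycolysis, and its 3 subunit genes were all measured. PFKP, the platelet-type subunit, had 335 and 346 CPM in treated and 167 and 139 in untreated knock-in cells, against 342 and 349 CPM in treated and 288 and 195 in untreated wild-type cells. PFKL, the liver-type subunit, had 113 and 123 CPM in treated and 65.6 and 48.8 in untreated knock-in cells, against 121 and 133 CPM in treated and 104 and 70.6 in untreated wild-type cells. PFKM, the muscle-type subunit, had 148 and 153 CPM in treated and 99.3 and 103 in untreated knock-in cells, against 165 and 179 CPM in treated and 153 and 135 in untreated wild-type cells. For each subunit both treated libraries exceeded both untreated ones in both lines, and the first untreated wild-type library exceeded the second. PFKP rose in knock-in (1.16 ± 0.18, edgeR adjusted p = 0.000761) and wild-type cells (0.52 ± 0.18, edgeR adjusted p = 0.0475), the wild-type value turning negative (−0.32) under spike-in scaling. With the GC trend removed the wild-type value was 0.020 (edgeR adjusted p = 0.902). Under spike-in scaling none of the 3 was called in knock-in cells (edgeR adjusted p = 0.0966 for PFKP at 0.62, 0.194 for PFKL at 0.52 and 0.899 for PFKM at 0.039). PFKL rose in knock-in cells (1.05 ± 0.21, edgeR adjusted p = 0.00223) and PFKM did so as well (0.57 ± 0.12, edgeR adjusted p = 0.0039), though PFKM lost its call with the GC trend removed (0.22, adjusted p = 0.0631). Neither passed in wild-type cells (0.54 ± 0.20, edgeR adjusted p = 0.0613 for PFKL; 0.25 ± 0.12, edgeR adjusted p = 0.135 for PFKM, which was −0.022, adjusted p = 0.881 with the GC trend removed and −0.56, adjusted p = 0.0364, called lower, under spike-in scaling). PFKP was the largest of the 3 by level per kilobase in every library, at 49.2 to 50.1% of their sum in treated and 43.5 to 44.7% in untreated knock-in cells, and 46.7 to 48.5% in treated and 44.0 to 47.1% in untreated wild-type cells.

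TPI1, which interconverts the triose phosphates, had 799 and 846 CPM in treated and 1082 and 1189 CPM in untreated knock-in cells. TPI1 in wild-type cells stood at 760.0 and 853 CPM when treated and 1015 and 1068 CPM when untreated. TPI1 fell modestly in knock-in (−0.47 ± 0.12, edgeR adjusted p = 0.00812) and wild-type cells (−0.37 ± 0.12, edgeR adjusted p = 0.0337), with untreated libraries above treated ones in both lines. In wild-type cells the call of GPI was lost without any 1 library other than untreated wild-type 1 (adjusted p up to 0.156), that of PFKP without any 1 library other than untreated wild-type 1 (adjusted p up to 0.163) and that of TPI1 without treated knock-in 1, treated knock-in 2, treated wild-type 1 or treated wild-type 2 (adjusted p up to 0.225). In knock-in cells the call of TPI1 was lost without treated knock-in 1, treated knock-in 2 or untreated knock-in 2 (adjusted p up to 0.0907).

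The 2 regulators make and remove the allosteric activator of phosphofructokinase. PFKFB3, the form found in proliferating cells, had 59.1 and 55.6 CPM in treated and 32.8 and 26.7 CPM in untreated knock-in cells. PFKFB3 in wild-type cells stood at 60.2 and 63.4 CPM when treated and 50.1 and 37.1 CPM when untreated. PFKFB3 rose in knock-in (0.95 ± 0.18, edgeR adjusted p = 0.00165) and wild-type cells (0.50 ± 0.17, edgeR adjusted p = 0.0455). The wild-type call was lost without any 1 library other than untreated knock-in 1, untreated knock-in 2 or untreated wild-type 1 (adjusted p up to 0.181), and the value was −0.33 under spike-in scaling. PFKFB4, a hypoxia-inducible form, had 25.9 and 27.1 CPM in treated and 16.9 and 16.0 CPM in untreated knock-in cells. PFKFB4 in wild-type cells stood at 37.2 and 34.9 CPM when treated and 30.8 and 25.7 CPM when untreated. PFKFB4 rose in knock-in cells (0.69 ± 0.15, edgeR adjusted p = 0.00441) and was not called in wild-type cells (0.35 ± 0.15, edgeR adjusted p = 0.0938). With the GC trend removed neither PFKFB3 (0.21, adjusted p = 0.141) nor PFKFB4 (0.28, adjusted p = 0.0913) was called in knock-in cells. Untreated knock-in cells had the lowest levels of both genes.

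Lower glycolysis was split: ENO1 and PKM rose in both lines, PGK1 fell in both, and GAPDH fell in knock-in cells. ENO1, the main enolase, had 1490.4 and 1439 CPM in treated and 739 and 885 CPM in untreated knock-in cells. ENO1 in wild-type cells stood at 1626 and 1664 CPM when treated and 894 and 913 CPM when untreated. The rise was near equal in knock-in (0.85 ± 0.12, edgeR adjusted p = 0.00045) and wild-type cells (0.86 ± 0.12, edgeR adjusted p = 0.000895) and was lost under spike-in scaling alone among the alternatives. PKM, pyruvate kinase, had 1965 and 2022 CPM in treated and 989 and 999 CPM in untreated knock-in cells. PKM in wild-type cells stood at 2033 and 2102 CPM when treated and 1563 and 1032 CPM when untreated. PKM rose in knock-in (1.00 ± 0.17, edgeR adjusted p = 0.00117) and wild-type cells (0.67 ± 0.17, edgeR adjusted p = 0.0139), but the wild-type call was lost without treated wild-type 1 or treated wild-type 2 (adjusted p up to 0.0718) and the value turned negative under spike-in scaling (−0.17). In PKM the first untreated wild-type library stood well above the other 3 untreated libraries. PGK1, phosphoglycerate kinase, had 624 and 633 CPM in treated and 1229 and 1169.6 CPM in untreated knock-in cells. PGK1 in wild-type cells stood at 588 and 625 CPM when treated and 943 and 1209 CPM when untreated. Every untreated library was above every treated one. PGK1 fell in knock-in (−0.93 ± 0.14, edgeR adjusted p = 0.000529) and wild-type cells (−0.83 ± 0.14, edgeR adjusted p = 0.00181), and both calls held in every alternative.

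GAPDH, glyceraldehyde phosphate dehydrogenase, had 1983 and 2050.3 CPM in treated and 2424 and 2970.2 CPM in untreated knock-in cells. GAPDH in wild-type cells stood at 2229 and 2365 CPM when treated and 2763 and 2955 CPM when untreated. It fell in knock-in cells (−0.42 ± 0.12, edgeR adjusted p = 0.0172), though not without treated knock-in 1, treated knock-in 2 or untreated knock-in 2 (adjusted p up to 0.135), and was not called in wild-type cells (−0.32 ± 0.12, edgeR adjusted p = 0.07). ENO2, the neuronal enolase, had 45.3 and 44.3 CPM in treated and 29.02 and 23.6 CPM in untreated knock-in cells. ENO2 in wild-type cells stood at 51.5 and 44.9 CPM when treated and 40.2 and 34.5 CPM when untreated. The gene rose in knock-in cells (0.77 ± 0.16, edgeR adjusted p = 0.00314) without passing in wild-type cells (0.37 ± 0.16, edgeR adjusted p = 0.0956), and the knock-in call was lost with the GC trend removed (0.18, adjusted p = 0.323). It held 3.20% or less of the summed enolase level per kilobase in every library. PGAM1, phosphoglycerate mutase, ranged from 454 to 657 CPM over the 8 libraries and was called in no comparison, except under spike-in scaling in wild-type cells (−0.65, adjusted p = 0.0137, against 0.17 ± 0.13 before).

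On the scale of CPM per kilobase, GAPDH was the most abundant member in every group, at 1577 ± 37.1 in treated and 2109 ± 302 in untreated knock-in cells, and 1796 ± 75.0 in treated and 2235 ± 106 in untreated wild-type cells (mean ± SD, n = 2). With IFN-γ the next levels were PKM at 867 ± 17.4 and ENO1 at 822 ± 20.4 in knock-in cells, and ENO1 at 923 ± 15.0 and PKM at 899.6 ± 21.2 in wild-type cells, where the libraries of PKM and ENO1 overlapped in wild-type and not in knock-in cells. Without it they were LDHB at 1160.0 ± 121 and LDHA at 795 ± 87.2 in knock-in cells, where LDHA and TPI1 at 778 ± 51.5 did not differ beyond their spread, and LDHB at 1209.7 ± 299.5 and LDHA at 873 ± 108 in wild-type cells. CA9 was lowest in all 4 groups, with means of 0.351 CPM per kilobase or less.

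Among genes of lactate and pyruvate handling, 3 fell in both lines: LDHA, LDHB and SLC16A1. Over all genes, 25.8% were called lower in knock-in and 20.8% in wild-type cells. SLC16A1, the monocarboxylate transporter that carries lactate in either direction (ENSG00000155380, chr1:112911847-112957013 on GRCh38, minus strand), had 129 and 128 CPM in treated and 331 and 296 CPM in untreated knock-in cells. SLC16A1 in wild-type cells stood at 136 and 143 CPM when treated and 273 and 339 CPM when untreated. All treated libraries were under all untreated ones. SLC16A1 fell in knock-in (−1.28 ± 0.14, edgeR adjusted p = 0.000192) and wild-type cells (−1.13 ± 0.14, edgeR adjusted p = 0.000579), in every alternative tried. Its estimated counts equal those of another gene ID in the table. Whether reads were divided between these IDs was not tested, so the level of SLC16A1 may be too low. SLC16A3, the lactate exporter of glycolytic cells, had 264 and 269 CPM in treated and 172 and 116 CPM in untreated knock-in cells. SLC16A3 in wild-type cells stood at 253 and 286 CPM when treated and 234 and 154 CPM when untreated. It rose in knock-in cells (0.88 ± 0.22, edgeR adjusted p = 0.00836), but untreated knock-in 2 carried the call (adjusted p = 0.0691 without it) and removal of the GC trend ended it too (log2 fold change 0.0094). The wild-type value was not called (0.47 ± 0.22, edgeR adjusted p = 0.122). Per kilobase, SLC16A3 was 80.4 and 80.8% of the summed level of both transporters in treated and 51.1 and 44.2% in untreated knock-in cells. In wild-type cells it was 79.0 and 80.05% when treated and 63.2 and 47.7% when untreated. These shares leave out the other ID with the counts of SLC16A1, and would be lower if reads were divided with it.

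LDHA, the lactate dehydrogenase subunit that favours lactate production, had 996 and 1069 CPM in treated and 1340.3 and 1566 in untreated knock-in cells, against 1097 and 1161 CPM in treated and 1454 and 1734 in untreated wild-type cells. LDHB, the subunit of oxidative tissues, had 905 and 962 CPM in treated and 1769 and 1526 in untreated knock-in cells, against 856 and 929 CPM in treated and 1418 and 2019 in untreated wild-type cells. Both genes had more CPM in every untreated than in every treated library of the same line. LDHB fell in knock-in (−0.82 ± 0.17, edgeR adjusted p = 0.0028) and wild-type cells (−0.95 ± 0.17, edgeR adjusted p = 0.00254), and kept its direction but not its call with the GC trend removed (−0.10, adjusted p = 0.569 in knock-in, −0.35, adjusted p = 0.0562 in wild-type cells). LDHA fell in knock-in (−0.49 ± 0.13, edgeR adjusted p = 0.011) and wild-type cells (−0.50 ± 0.13, edgeR adjusted p = 0.0162) but turned positive without a call once the GC trend was removed (0.23, adjusted p = 0.0595 in knock-in, 0.058, adjusted p = 0.655 in wild-type cells). The LDHA call was also lost without treated knock-in 1, treated knock-in 2 or untreated knock-in 2 (adjusted p up to 0.0999) in the knock-in response and without treated wild-type 1 or treated wild-type 2 (adjusted p up to 0.113) in the wild-type response. PDK1, the kinase that closes off pyruvate entry into mitochondria, had 19.0 and 20.7 CPM in treated and 20.9 and 26.9 CPM in untreated knock-in cells. PDK1 in wild-type cells stood at 32.3 and 27.3 CPM when treated and 37.5 and 44.4 CPM when untreated. It was not called with IFN-γ in knock-in (−0.27 ± 0.18, edgeR adjusted p = 0.249) or wild-type cells (−0.46 ± 0.18, edgeR adjusted p = 0.0705). With the GC trend removed PDK1 was called higher in knock-in cells (0.53, adjusted p = 0.0284).

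Hypoxia-inducible genes outside glycolysis followed no single direction. In knock-in cells 5 of the 10 rose with IFN-γ, 3 fell and 2 were not called, beside 26.4% of all genes called higher and 25.8% lower. In wild-type cells 1 rose, 4 fell and 5 were not called, beside 17.1% of all genes called higher and 20.8% lower. BNIP3, a receptor for the removal of mitochondria, had 28.7 and 30.5 CPM in treated and 54.1 and 57.2 CPM in untreated knock-in cells. BNIP3 in wild-type cells stood at 44.4 and 46.2 CPM when treated and 87.3 and 103 CPM when untreated. BNIP3 fell in knock-in (−0.91 ± 0.14, edgeR adjusted p = 0.000589) and wild-type cells (−1.07 ± 0.14, edgeR adjusted p = 0.000648), called in every alternative. BNIP3 pseudogenes held 2.11 to 9.04% of the family's counts. P4HA1, a collagen prolyl hydroxylase subunit, had 47.9 and 49.3 CPM in treated and 108 and 98.8 CPM in untreated knock-in cells. P4HA1 in wild-type cells stood at 64.2 and 71.7 CPM when treated and 130.0 and 177 CPM when untreated. P4HA1 fell in knock-in (−1.09 ± 0.16, edgeR adjusted p = 0.000594) and wild-type cells (−1.18 ± 0.16, edgeR adjusted p = 0.000877), and with the GC trend removed the knock-in value was not called (−0.23, adjusted p = 0.0941). For both genes, knock-in libraries lay below wild-type libraries at matched treatment, with or without IFN-γ.

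KDM3A, a histone demethylase, had 120.2 and 121 CPM in treated and 159 and 171 CPM in untreated knock-in cells. KDM3A in wild-type cells stood at 110.5 and 107 CPM when treated and 134 and 174 CPM when untreated. KDM3A fell in knock-in (−0.45 ± 0.14, edgeR adjusted p = 0.025) and wild-type cells (−0.50 ± 0.14, edgeR adjusted p = 0.0237), but leaving out 1 library could end either call. They were lost without treated knock-in 1, treated knock-in 2, untreated knock-in 1 or untreated knock-in 2 (adjusted p up to 0.128) in knock-in and without any 1 library other than untreated knock-in 1, untreated knock-in 2 or untreated wild-type 1 (adjusted p up to 0.132) in wild-type cells. ANKRD37, an ankyrin repeat protein and HIF target, had 4.07 and 4.07 CPM in treated and 5.96 and 7.06 CPM in untreated knock-in cells. ANKRD37 in wild-type cells stood at 3.62 and 5.14 CPM when treated and 7.95 and 11.4 CPM when untreated. It fell in wild-type cells (−1.14 ± 0.28, edgeR adjusted p = 0.0114; lost without treated wild-type 1 or untreated wild-type 2, adjusted p up to 0.0892) and was not called in knock-in cells (−0.68 ± 0.28, edgeR adjusted p = 0.0691). VEGFA, the main endothelial growth factor, had 60.7 and 60.4 CPM in treated and 36.0 and 40.5 CPM in untreated knock-in cells. VEGFA in wild-type cells stood at 61.3 and 66.7 CPM when treated and 48.1 and 41.6 CPM when untreated. VEGFA rose in knock-in (0.66 ± 0.14, edgeR adjusted p = 0.00324) and wild-type cells (0.51 ± 0.14, edgeR adjusted p = 0.0174); under spike-in scaling the wild-type value was −0.31, and the wild-type call was lost without treated wild-type 1 or treated wild-type 2 (adjusted p up to 0.122).

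Another 4 hypoxia-inducible genes rose in knock-in cells given IFN-γ and were not called in wild-type cells. ANGPTL4, a secreted inhibitor of lipoprotein lipase, had 4.69 and 6.42 CPM in treated and 2.73 and 2.87 in untreated knock-in cells, against 11.5 and 11.6 CPM in treated and 13.6 and 10.4 in untreated wild-type cells. EGLN3, a prolyl hydroxylase that marks HIF for degradation, had 7.07 and 5.82 CPM in treated and 2.62 and 3.61 in untreated knock-in cells, against 7.21 and 11.0 CPM in treated and 9.75 and 8.37 in untreated wild-type cells. NDRG1, a stress-induced cytosolic protein, had 54.1 and 50.7 CPM in treated and 38.2 and 31.2 in untreated knock-in cells, against 76.0 and 78.3 CPM in treated and 95.3 and 73.5 in untreated wild-type cells. In all 3 the untreated knock-in libraries were the lowest of the 8, and the treated and untreated wild-type libraries overlapped. ADM, the precursor of the vasodilator adrenomedullin, had 32.6 and 32.1 CPM in treated and 18.4 and 25.1 CPM in untreated knock-in cells. ADM in wild-type cells stood at 59.8 and 55.4 CPM when treated and 48.1 and 34.3 CPM when untreated, so that untreated knock-in cells were again lowest. In knock-in cells ANGPTL4 (0.98 ± 0.25, edgeR adjusted p = 0.00795) and EGLN3 (1.04 ± 0.29, edgeR adjusted p = 0.0131) had the larger rises, and NDRG1 (0.60 ± 0.16, edgeR adjusted p = 0.0129) and ADM (0.57 ± 0.20, edgeR adjusted p = 0.0387) the smaller ones. In wild-type cells the log2 fold changes were −0.056 ± 0.23 for ANGPTL4, 0.0084 ± 0.28 for EGLN3, −0.13 ± 0.16 for NDRG1 and 0.48 ± 0.20 for ADM. All 4 knock-in calls were lost with the plasma cell libraries left out and under spike-in scaling. ANGPTL4 also lost its call without treated knock-in 2 (adjusted p up to 0.0859), EGLN3 without treated knock-in 1 or untreated knock-in 1 (adjusted p up to 0.0878), NDRG1 without treated knock-in 1 or untreated knock-in 2 (adjusted p up to 0.108) and ADM without any 1 library other than untreated knock-in 2, untreated wild-type 1 or untreated wild-type 2 (adjusted p up to 0.247). With the GC trend removed EGLN3 was still called (1.14, adjusted p = 0.0116), ANGPTL4 (0.19, adjusted p = 0.577) and ADM (0.23, adjusted p = 0.295) were not, and NDRG1 turned negative without a call (−0.16, adjusted p = 0.24). CA9, a membrane carbonic anhydrase and a sensitive marker of HIF activity, had 0.764 CPM or less in every library and was called in no comparison.

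Without IFN-γ, knock-in cells had lower levels of many of these genes than wild-type cells: 11 members were called lower and 1, SLC2A3, higher, where 4.17% of all tested genes were called lower and 4.26% higher. The members' median log2 difference was −0.53, against −0.02 for all genes. Of the hypoxia-inducible genes outside glycolysis, ANGPTL4 (−2.10 ± 0.25, edgeR adjusted p = 0.00178), EGLN3 (−1.53 ± 0.29, edgeR adjusted p = 0.016) and NDRG1 (−1.28 ± 0.17, edgeR adjusted p = 0.00273) were lower, and so were ADM (−0.92 ± 0.20, edgeR adjusted p = 0.0271) and BNIP3 (−0.77 ± 0.13, edgeR adjusted p = 0.0109). In upper glycolysis HK2 was lower, as given above, and so were ALDOC (−0.78 ± 0.15, edgeR adjusted p = 0.0174), GPI (−0.65 ± 0.16, edgeR adjusted p = 0.039) and PFKM (−0.51 ± 0.12, edgeR adjusted p = 0.0383). PFKFB4 (−0.78 ± 0.15, edgeR adjusted p = 0.0183) and PDK1 (−0.77 ± 0.18, edgeR adjusted p = 0.0331) completed the 11. For each of them both untreated knock-in libraries lay below both untreated wild-type libraries, as they did for 22 members in all, and 2 members had both above. How many of all tested genes separated in this way was not counted. By role, the 11 were 5 of the 10 other hypoxia-inducible genes, 4 of the 9 upper glycolysis enzymes, 1 of the 2 regulators and 1 of the 5 lactate and pyruvate genes, and none of the 6 lower glycolysis enzymes.

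ANGPTL4 and HK2 kept the lower call in all 19 alternatives, and NDRG1 in all but the one without the plasma cell libraries. Of the others, EGLN3 lost its call without untreated knock-in 1 or untreated wild-type 1 (adjusted p up to 0.0819), and both ALDOC (adjusted p up to 0.0929) and BNIP3 (adjusted p up to 0.0675) without untreated knock-in 1 or untreated knock-in 2. PFKFB4 lost its call without any 1 library other than treated wild-type 1, treated wild-type 2 or untreated wild-type 2 (adjusted p up to 0.116). PDK1 (adjusted p up to 0.149) and GPI (adjusted p up to 0.165) lost theirs without any 1 library other than untreated wild-type 1 or untreated wild-type 2. ADM lost its call without any 1 library other than untreated knock-in 2 or untreated wild-type 2 (adjusted p up to 0.124), and PFKM without any 1 library other than untreated wild-type 2 (adjusted p up to 0.149). The untreated wild-type replicates differed from each other: without the second of them 21 members were called, 19 of them lower, while the calls over all genes grew to 4815 against 1392 with every library. Plasma cell transcripts were in both untreated wild-type libraries and in 1 of 2 untreated knock-in libraries. Leaving out that knock-in library sets a knock-in library without these transcripts against wild-type libraries that all hold them. Line and plasma cell transcripts then coincide, and a call kept in that fit cannot tell them apart. Without that knock-in library and its treated counterpart, 3 members remained called: SLC2A3 higher, and HK2 and ANGPTL4 lower.

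With IFN-γ, 3 members were lower in knock-in than in wild-type cells and SLC2A3 was higher, where 1.28% and 1.63% of all genes were called. ANGPTL4 (−1.05 ± 0.23, edgeR adjusted p = 0.0476), ALDOC (−0.98 ± 0.15, edgeR adjusted p = 0.00812) and BNIP3 (−0.61 ± 0.14, edgeR adjusted p = 0.0467) were those called lower, all of them also among the 11 of the untreated comparison. All 3 calls were lost under spike-in scaling and without the plasma cell libraries. ALDOC also lost its call without treated knock-in 1, treated knock-in 2, treated wild-type 1 or treated wild-type 2 (adjusted p up to 0.152), and both ANGPTL4 (adjusted p up to 0.381) and BNIP3 (adjusted p up to 0.382) without any 1 library other than untreated wild-type 1 or untreated wild-type 2. Without either untreated wild-type library, which are in neither group compared, 11 members were called, 9 of them lower. Calls over all genes grew as well, from 481 with every library. They reached 1015 of 17348 without the first (439 lower) and 1111 of 17393 without the second (516 lower). Knock-in libraries lay below wild-type libraries for 21 members and above them for 3, without overlap. The matching share of all tested genes was not counted. The members' median difference was −0.12, against −0.01 for all genes. The other 8 genes lower in untreated knock-in cells had log2 differences of −0.19 to −0.83 with IFN-γ and were not called, ADM being nearest to the threshold (−0.83 ± 0.20, edgeR adjusted p = 0.0628).

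**Figure D3:**
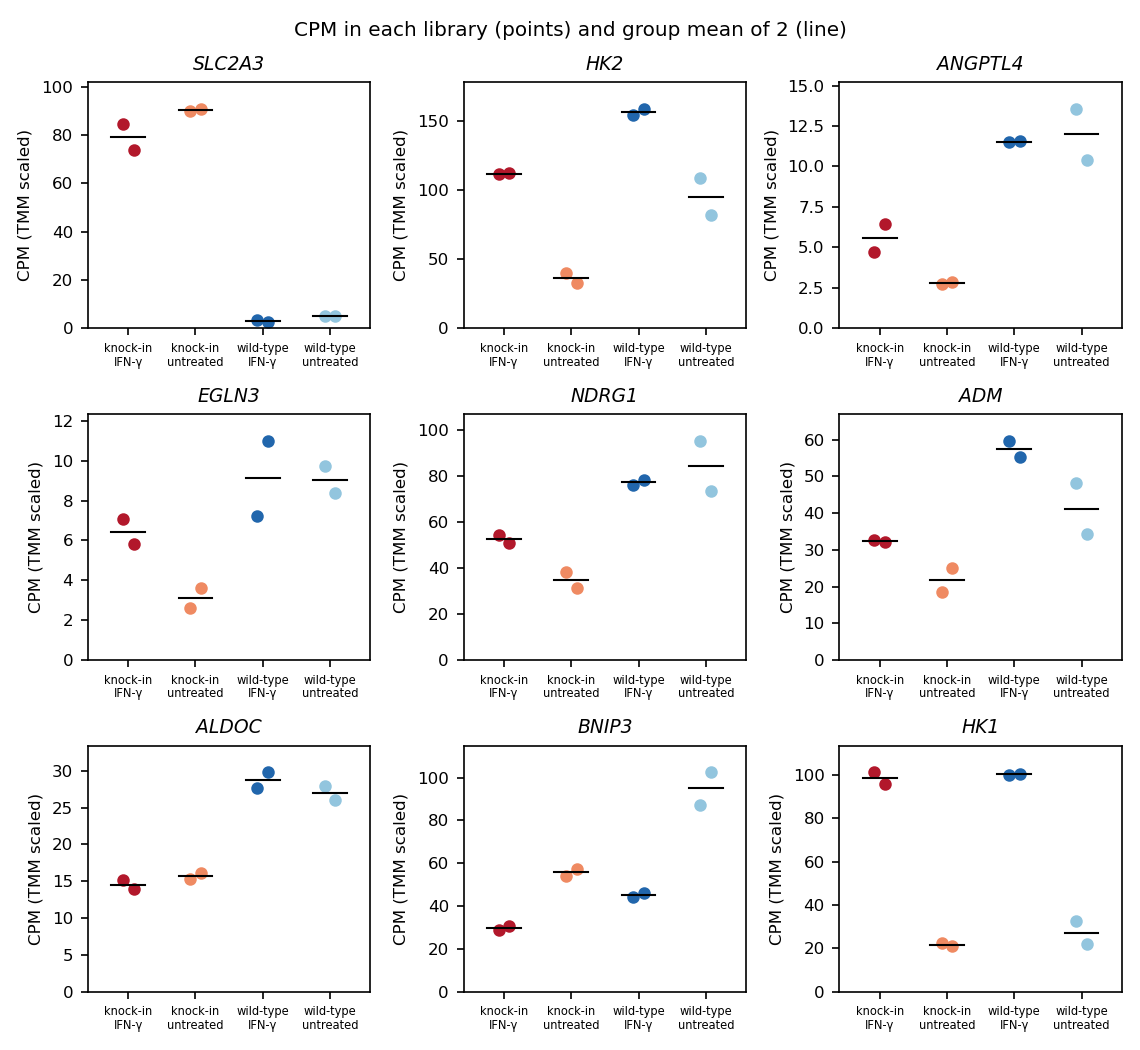
CPM of 9 genes in each library (points, 2 per group) with the group mean (line); each axis starts at 0. SLC2A3 is near 0 in both wild-type groups, HK1 depends on treatment in both lines, and HK2, ANGPTL4, EGLN3, NDRG1 and ADM are lowest in untreated knock-in cells.

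**Figure D4:**
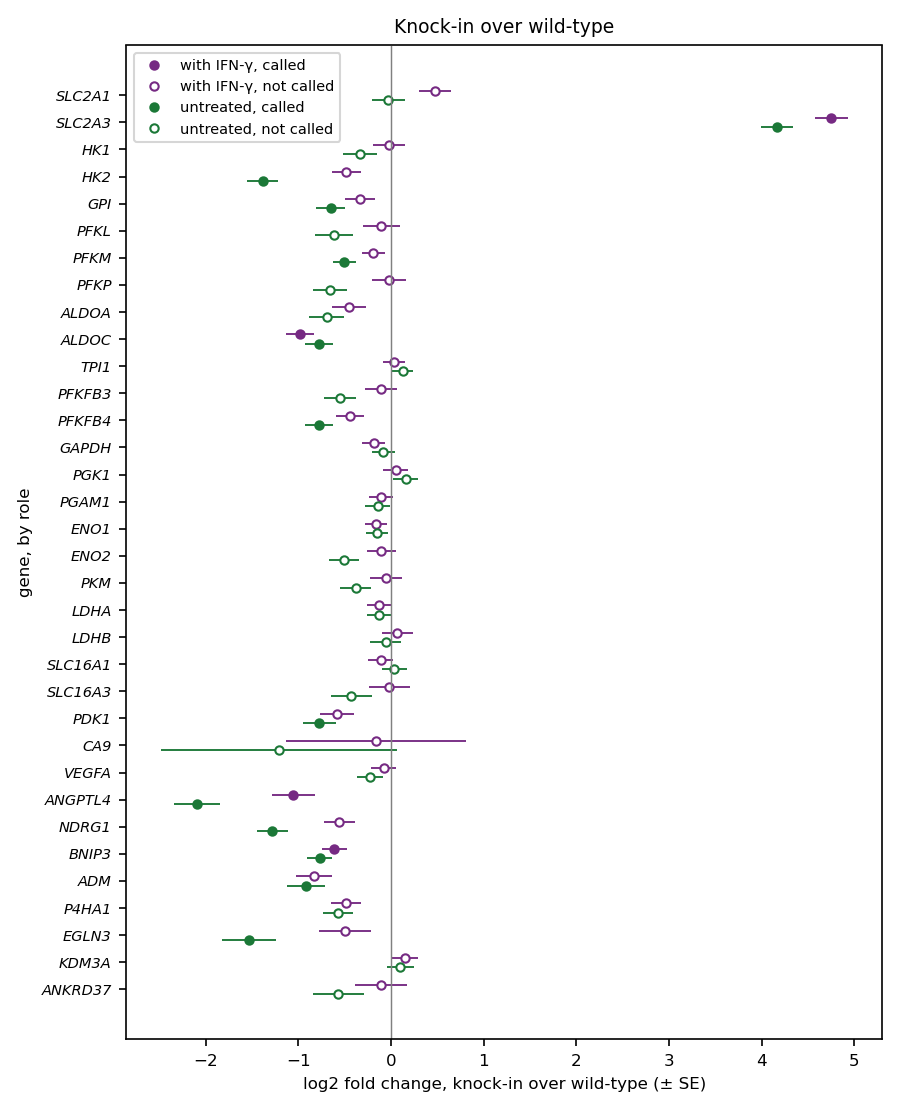
Log2 fold change of knock-in over wild-type cells for the 34 genes with IFN-γ (purple) and untreated (green), with standard errors; filled points were called. SLC2A3 stands at 4.75 and 4.17; without IFN-γ 11 genes are called lower, from −0.51 for PFKM to −2.10 for ANGPTL4, and with IFN-γ 3 are.

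Promoter sequences were searched for the core of the HIF motif. RefSeq (GRCh38.p14) lists promoters for 30 of the 34 members, and the 250 bases before each listed start were searched on both strands for ACGTG and for its variant GCGTG. The palindrome CACGTG holds a match on each strand, and these count separately. A match is a description of letters and not a bound site. At least 1 core was in 34 of 57 member promoters (59.6%), beside 43.2% of all 35116 promoters. By gene, 25 of the 30 members (83.3%) had one in a promoter, beside 47.4% of 27305 genes. Members had more listed promoters per gene, which gives more chances of a match. They were also listed as glycolytic or hypoxia-inducible genes, so the comparison is a description only. Shown 5′ to 3′ on the gene's strand, with core matches in capitals, are some of the genes with a single listed start. Of those shown, 5 were among the genes called lower in untreated knock-in cells. Another 2 were not, and moved in opposite directions with IFN-γ. They are ANGPTL4 at chr19:8363905-8364154 (plus strand), ADM at chr11:10304823-10305072 (plus), PFKFB4 at chr3:48556804-48557053 (minus), ALDOC at chr17:28576896-28577145 (minus), EGLN3 at chr14:33951075-33951324 (minus), PGK1 at chrX:78103998-78104247 (plus) and ENO1 at chr1:8878687-8878936 (minus).
ANGPTL4: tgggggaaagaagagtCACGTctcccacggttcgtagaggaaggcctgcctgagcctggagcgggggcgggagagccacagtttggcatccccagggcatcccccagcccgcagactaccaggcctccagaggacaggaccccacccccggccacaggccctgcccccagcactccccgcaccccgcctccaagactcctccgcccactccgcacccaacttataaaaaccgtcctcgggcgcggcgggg
ADM: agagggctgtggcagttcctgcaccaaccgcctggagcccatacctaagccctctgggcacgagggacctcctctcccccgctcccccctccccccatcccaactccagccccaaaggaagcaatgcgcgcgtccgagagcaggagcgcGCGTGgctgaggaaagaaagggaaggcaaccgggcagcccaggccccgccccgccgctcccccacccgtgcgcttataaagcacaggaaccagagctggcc
PFKFB4: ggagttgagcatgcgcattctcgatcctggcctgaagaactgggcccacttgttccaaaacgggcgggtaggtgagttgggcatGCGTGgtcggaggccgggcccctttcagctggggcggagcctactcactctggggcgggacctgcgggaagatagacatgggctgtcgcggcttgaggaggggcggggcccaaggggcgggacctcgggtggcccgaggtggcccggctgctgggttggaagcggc
ALDOC: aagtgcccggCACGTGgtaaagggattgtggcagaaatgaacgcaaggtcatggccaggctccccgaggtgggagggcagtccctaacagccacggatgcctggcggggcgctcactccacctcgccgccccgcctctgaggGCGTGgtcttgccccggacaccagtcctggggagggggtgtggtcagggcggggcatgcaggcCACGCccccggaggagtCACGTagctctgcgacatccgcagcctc
EGLN3: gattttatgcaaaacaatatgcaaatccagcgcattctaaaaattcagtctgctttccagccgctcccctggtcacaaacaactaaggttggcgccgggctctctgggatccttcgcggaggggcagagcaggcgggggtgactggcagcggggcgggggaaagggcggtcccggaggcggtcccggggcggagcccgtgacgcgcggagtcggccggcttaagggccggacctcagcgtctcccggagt
PGK1: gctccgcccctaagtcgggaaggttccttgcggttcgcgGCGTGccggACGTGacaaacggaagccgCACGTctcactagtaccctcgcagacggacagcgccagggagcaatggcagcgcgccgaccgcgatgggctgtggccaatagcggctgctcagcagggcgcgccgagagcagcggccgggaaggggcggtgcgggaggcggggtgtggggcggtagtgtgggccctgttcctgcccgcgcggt
ENO1: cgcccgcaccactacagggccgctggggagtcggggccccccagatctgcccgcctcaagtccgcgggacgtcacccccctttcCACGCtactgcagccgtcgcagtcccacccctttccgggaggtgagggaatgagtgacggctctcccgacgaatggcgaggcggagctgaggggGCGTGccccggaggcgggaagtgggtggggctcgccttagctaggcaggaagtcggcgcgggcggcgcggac

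ALDOC held 5 matches, PGK1 held 3, ENO1 held 2, ANGPTL4, ADM and PFKFB4 held 1 each and EGLN3 held none in this window. Genes with several matches moved in either direction or in none: PGK1 fell and ENO1 rose with IFN-γ with several matches each, and ALDOC, with the most of the 7, was not called in either response. ANGPTL4, EGLN3 and ADM, the 3 of these 7 with the largest differences between untreated lines, held 1, 0 and 1. BNIP3 and GPI, not shown, also had a single listed start and were called lower in untreated knock-in cells. BNIP3 held 6 matches, more than ALDOC, and fell with IFN-γ in both lines. GPI held 1 match.

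None of the members had a called difference between the responses (knock-in minus wild-type), and neither had any other gene (0% of 16519 by edgeR; 1119 at an unadjusted p under 0.05; 4 genes by DESeq2 and 0 by limma-voom). Of the 34 estimates 28 were positive, with a median of 0.31 beside 0.01 for all genes. The members under 0.05 before adjustment were HK2 (0.90 ± 0.23), NDRG1 (0.73 ± 0.23), ANGPTL4 (1.04 ± 0.34), EGLN3 (1.03 ± 0.40), SLC2A3 (0.59 ± 0.23) and PFKP (0.64 ± 0.26). Each of these 6 had an edgeR adjusted p of 0.688. The SLC2A3 value turned to −0.95 ± 0.25 once its pseudogenes were added. So the calls of ANGPTL4, EGLN3, NDRG1 and ADM in knock-in but not wild-type cells do not show that the lines respond differently.

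The direction of a member's response went with the base composition of its transcripts. Over the 34 genes, log2 fold change with IFN-γ correlated with median transcript GC content at Pearson r = 0.63 (Spearman 0.62) in knock-in and r = 0.63 (Spearman 0.61) in wild-type cells, a description across genes that share the same libraries. Members called higher had a median GC content of 57.4% in knock-in and 57.3% in wild-type cells, and those called lower 44.8% in each. HK1 (52.9%) and HK2 (50.4%) had responses above genes of like GC content, whereas P4HA1 (40.8%) and SLC16A1 (42.6%) were among the most GC-poor. The GC content of whole libraries also differed between treated and untreated cells, as given above, and whether this arose in the cells or in library preparation cannot be told apart here.

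**Figure D5:**
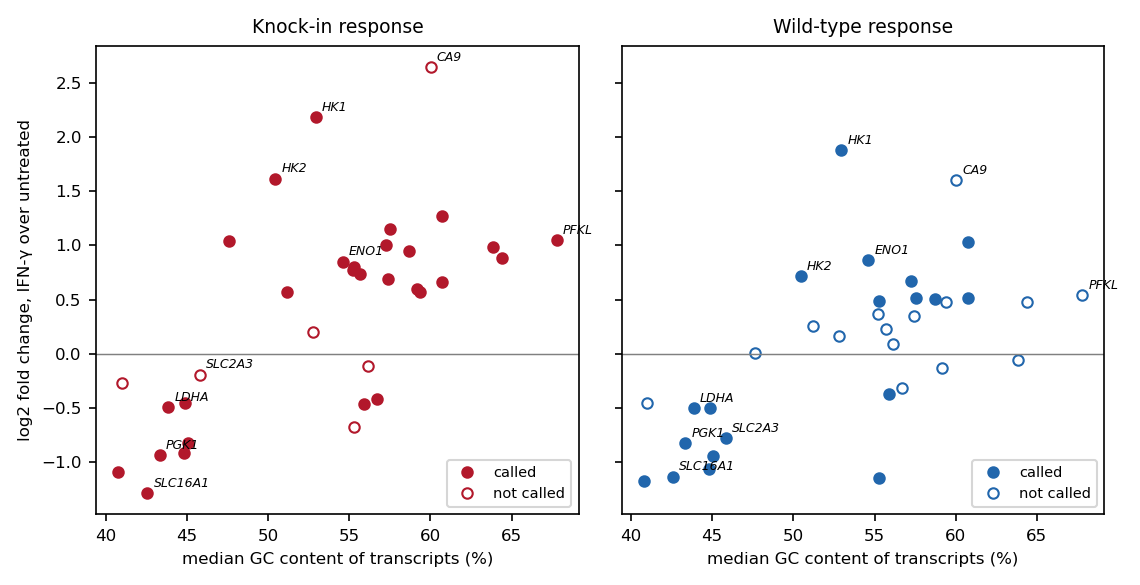
Log2 fold change of IFN-γ over untreated (vertical axis) against the median GC content of each gene's coding transcripts in percent (horizontal axis) for the 34 genes in knock-in (left) and wild-type cells (right); filled points were called. Genes under 46% GC lie below 0 and most genes above 50% lie above it, with HK1 and HK2 above genes of like GC content.

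Once the dependence of counts on GC content and length had been taken out of every library, 10 members were called higher and 7 lower in knock-in cells (15.7% and 14.1% of all genes), and 4 higher and 10 lower in wild-type cells (12.5% and 11.2%). In knock-in cells HK1, HK2, PFKL, PFKP, ALDOA, ENO1, PKM, VEGFA and EGLN3 stayed called higher and PDK1 joined them, while TPI1, GAPDH, PGK1, SLC16A1, BNIP3 and KDM3A stayed lower and ALDOC joined (−0.51, adjusted p = 0.0129). In wild-type cells HK1, ALDOA, ENO1 and VEGFA stayed called higher, 8 of the 10 stayed lower, and GAPDH (−0.39, adjusted p = 0.0279) and NDRG1 (−0.58, adjusted p = 0.00234) joined the lower ones. The count of called line differences grew, as it did over all genes (2491 against 1392 in untreated cells). The differences themselves did not all grow. In untreated knock-in cells 15 members were lower and 1 higher than in untreated wild-type cells (7.74% and 7.34% of all genes). The lower ones included all 11 of the first analysis plus PFKP, ALDOA, LDHA and P4HA1. With IFN-γ 10 were lower and 2 higher (3.86% and 4.23%), including the first 3 plus HK2, GPI, PFKFB4, ALDOA, NDRG1, ADM and P4HA1, and SLC2A1 joined SLC2A3 (0.43, adjusted p = 0.0331).

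Scaled to the ERCC spike-ins, whose share of counts was higher in treated libraries, the median of all genes moved to −0.41 in the knock-in response, −0.72 in the wild-type response, −0.35 in the untreated line difference and −0.06 with IFN-γ. On that scale only HK1 and HK2 were called higher in knock-in and only HK1 in wild-type cells, while 13 and 17 members were called lower. Of all 16519 tested genes, 616 were called higher and 5476 lower in knock-in cells on that scale. In wild-type cells 233 were called higher and 6745 lower. The amount of spike-in added per cell is not given in the sources used here, so which scale reflects RNA per cell was not tested. HK1 was highest of the members above 5 CPM on this scale too, and P4HA1, SLC16A1, BNIP3 and LDHB were among the 5 lowest in both lines. Between the lines, SLC2A3 stayed higher with (4.68, adjusted p = 0.000142) and without IFN-γ (3.84, adjusted p = 0.000211), and 10 members were lower in untreated knock-in cells, 9 of them from the first 11. Of all 16519 tested genes, 150 were higher and 517 lower in untreated knock-in cells on that scale.

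Transcripts of the factors that read the HIF motif were measured too, but not their protein or activity. Whether they bear on the members' levels was not tested. EPAS1, the alpha subunit prominent in long-lasting hypoxia, had 21.2 and 19.6 CPM in treated and 10.4 and 7.84 CPM in untreated knock-in cells. EPAS1 in wild-type cells stood at 49.4 and 48.1 CPM when treated and 30.3 and 25.7 CPM when untreated. Knock-in libraries lay below wild-type libraries at matched treatment without overlap, and EPAS1 was lower in knock-in cells with (−1.26 ± 0.17, edgeR adjusted p = 0.00495; −1.32, adjusted p = 0.0536 under spike-in scaling) and without IFN-γ (−1.63 ± 0.18, edgeR adjusted p = 0.00139). With IFN-γ it rose in knock-in (1.17 ± 0.18, edgeR adjusted p = 0.000673; 0.64, adjusted p = 0.0954 under spike-in scaling) and wild-type cells (0.80 ± 0.17, edgeR adjusted p = 0.00617; 0.22, adjusted p = 0.2 with the GC trend removed and −0.012 under spike-in scaling). HIF1A, the other alpha subunit, had 213 and 215 CPM in treated and 436 and 453 CPM in untreated knock-in cells. HIF1A in wild-type cells stood at 228 and 212 CPM when treated and 311 and 389.8 CPM when untreated. Untreated libraries were above treated ones. HIF1A fell with IFN-γ in knock-in (−1.05 ± 0.14, edgeR adjusted p = 0.000314) and wild-type cells (−0.67 ± 0.14, edgeR adjusted p = 0.00456). Once the GC trend was removed it was called in neither line and both values turned slightly positive (0.03, adjusted p = 0.835 in knock-in, 0.086, adjusted p = 0.524 in wild-type cells). HIF1A was not called between lines (−0.041 ± 0.13 with and 0.34 ± 0.13 without IFN-γ). ARNT, VHL and EGLN1, which partner, destroy and hydroxylate the alpha subunits, were called in no comparison with TMM scaling. EGLN1 was called lower in untreated knock-in cells with the GC trend removed (−0.36, adjusted p = 0.0439). Under spike-in scaling VHL and EGLN1 were called lower with IFN-γ in knock-in (−0.68, adjusted p = 0.02 for VHL; −0.61, adjusted p = 0.0239 for EGLN1) and wild-type cells (−0.85, adjusted p = 0.0057 for VHL; −0.88, adjusted p = 0.00294 for EGLN1).

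The counts in related gene lists stand beside shares of 26.4% of all genes called higher and 25.8% lower in knock-in cells, and 17.1% higher and 20.8% lower in wild-type cells. Of 16 genes of hypoxia sensing, 6 were called higher and 5 lower with IFN-γ in knock-in cells, and 4 higher and 5 lower in wild-type cells, with EPAS1 the only one called between the lines. Of 27 tested hypoxia-inducible genes that are not members, 9 were called higher and 6 lower in knock-in cells and 6 higher and 5 lower in wild-type cells; 1 was higher and 2 were lower in untreated knock-in cells, and 1 was lower with IFN-γ. Over all genes the line difference was called higher for 4.26% and lower for 4.17% untreated, and higher for 1.63% and lower for 1.28% with IFN-γ. Of 28 genes of pyruvate entry and the tricarboxylic acid cycle, 5 were called higher and 15 lower in knock-in and 1 higher and 13 lower in wild-type cells, with median log2 fold changes of −0.62 in knock-in and −0.38 in wild-type cells. With the GC trend removed 2 were higher and 10 lower in knock-in cells (median −0.04) and 3 higher and 9 lower in wild-type cells (median −0.10), where all genes had the shares given above for that analysis. Of 7 tested pentose phosphate genes, 3 rose and 1 fell in knock-in and 2 rose and 2 fell in wild-type cells. Of 7 tested gluconeogenesis and glucose-sensing genes, 3 rose in knock-in cells, and 2 rose and 1 fell in wild-type cells. That 1 was TXNIP, a glucose-induced brake on glucose uptake, whose CPM of 2.23 to 8.50 came only from the 4 libraries with plasma cell transcripts and was 0 in the other 4. ARRDC4, its relative, had 17.7 and 14.3 CPM in treated and 22.3 and 20.8 in untreated knock-in cells. Wild-type cells had 12.5 and 14.2 CPM when treated and 16.1 and 16.2 when untreated. ARRDC4 was called in no comparison with TMM scaling. Under spike-in scaling it was called lower with IFN-γ in knock-in (−0.96, edgeR adjusted p = 0.00798) and wild-type cells (−1.09, edgeR adjusted p = 0.00377).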

How the data were processed

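Ribosomal RNA-depleted total RNA from 8 libraries, 2 in each of 4 groups, was analysed. Per the submitters' processing notes, the authors used Trimmomatic and kallisto with GRCh38; their versions and the transcript annotation were not given in the sources. The deposited values are estimated counts per Ensembl gene ID, not normalised (58.1% of nonzero values are not whole, tolerance 1e-06). GENCODE 29 supplied names for 35583 IDs, with their positions, transcript lengths and base composition, the last for 92.4% of the genes tested.

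Counts were rounded, ERCC spike-ins left out, and genes kept by edgeR's filterByExpr (minimum count 10). TMM factors (0.860 to 1.13) scaled the libraries, and CPM, counts relative to the scaled library size, are on that scale. edgeR 4.0.16 in R 4.3.3 (limma 3.58.1, DESeq2 1.42.0 for alternatives) fitted 1 model with group as the only factor. Quasi-likelihood F tests were adjusted by Benjamini-Hochberg over the 16519 genes, with a threshold of 0.05. Standard errors are the absolute log2 fold change over the square root of F. The GC and length trend was removed per library by loess (span 0.3) as an offset. Levels per kilobase use the median length of basic coding transcripts. The fits were tested on simulated counts with known changes.

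The members, lists and tests were chosen with earlier results of these data known. Named genes were all members, with values in every library for those called at least once at 5 CPM or more, and a short list of HIF regulators, glucose-sensing genes, MED12 and IRF1.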

Additional observations from a re-analysis of the deposited data

How the results depend on the processing

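Among the members, HK1, PGK1, SLC16A1 and BNIP3 kept their call in both responses, HK2 in the knock-in and P4HA1 in the wild-type response, SLC2A3 in both line comparisons and HK2 and ANGPTL4 in untreated cells, under every alternative tried. Over the members' fold changes in all analyses but the sum of SLC2A3 with its pseudogenes, 2726 values kept their direction and side of the threshold, 208 fell below it and 108 passed it. The sign changed for 14 that were called with or without the alternative and for 95 that were called in neither; the causes were not tested. Among the 14, scaling to the spike-ins turned 9 wild-type responses: HK2 (−0.11), GPI (−0.35), PFKM (−0.56), PFKP (−0.32), PFKFB3 (−0.33), ALDOC (−0.72), PGAM1 (−0.65), PKM (−0.17) and VEGFA (−0.31). Removal of the GC and length trend turned the other 5: GPI (−0.012) and LDHA (0.058) in wild-type cells and LDHA (0.23), PDK1 (0.53) and NDRG1 (−0.16) in knock-in cells. Uncalled values changed sign in 20 cases under spike-in scaling and 15 under GC removal, SLC2A1 in wild-type cells (−0.60 and −0.087) among them. Adding the pseudogene counts to SLC2A3, chosen after seeing the data, turned its wild-type response to 0.83.

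The count of 28 members and 8613 genes called in the knock-in response became 15 members under spike-in scaling, 17 members and 4925 genes with the GC trend removed, and 11 members and 3523 genes without the plasma cell libraries; with 1 library left out it ran from 21 to 29 members and from 6327 to 9322 genes. The wild-type count of 19 members and 6256 genes became 11 members when only the groups compared were fitted and 3928 genes with the GC trend removed, and ran from 10 to 25 members and 3266 to 7796 genes with 1 library left out. In untreated cells, 12 members and 1392 genes differed between lines. Fitting only the groups compared gave 5 and 614. Leaving out the 2 knock-in plasma cell libraries gave 3 and 250. Both untreated wild-type libraries, which hold those transcripts, were kept in that fit, so it does not compare lines free of them. Spike-in scaling gave 667 genes, DESeq2 2291 genes, no filter 2959 genes, and GC removal 2491 genes. When 1 library was left out there were 4 to 21 members and 406 to 4815 genes. With IFN-γ, 4 members and 481 genes differed. Upper-quartile factors gave 2 members, spike-in scaling 1 and 195 genes, DESeq2 7 and 888, and no filter 7 and 1227. GC removal gave 12 and 1337, and fitting only the groups compared 14 and 2427. Leaving out the same 2 knock-in libraries gave 1 and 118. When 1 library was left out there were 1 to 11 members and 147 to 1111 genes. The difference between responses, 0 throughout at first, gave 1 member and 267 genes with no filter, 4 genes with DESeq2, 5 genes without the plasma cell libraries and 0 to 2 genes with 1 library left out.

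Same-numbered libraries deviated together in the knock-in groups (correlation 0.27), where library 2 of both held plasma cell transcripts. The other 5 pairs of groups gave −0.0019 to 0.074, so the numbers are not taken as pairs. With the replicate block, 28 members and 8725 genes were called in the knock-in response, 21 and 6765 in the wild-type response, 15 and 1849 between untreated lines, 3 and 523 between treated lines (ANGPTL4 lost its call) and 0 in the difference. With 2 libraries per group and a common coefficient of variation of 20.4%, small changes of low genes such as CA9 were not detectable.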
